A study of Mus musculus with 23 samples.

Results

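Transcripts of 10 genes, Tmsb4x, Tmsb10, Actb, Actg1, Pfn1, Cfl1, Coro1a, Lcp1, Vim and Ahnak, were measured in dendritic cells (DCs) sorted from mouse spleen. They were taken by symbol from the 47729 genes of the count table, as genes of the actin cytoskeleton and other structural genes with high CPM (counts scaled to a common library total) in these libraries, and all 10 were found. The members were chosen by function and selected on their CPM in these same libraries, so that their abundance is given as a description with no test. The study compared 4 splenic DC populations of wild type Balb/C mice, DC1a (CD8hi CD172-), DC1b (CD8Int CD172+), DC2 (CD8lo CD172hi) and DC3 (CD8- CD172lo), between untreated mice and mice given TLI, an abbreviation the sample labels do not spell out. Each library came from 1 population sorted from 1 pool of mice. There were 2 pools of untreated mice and 4 pools of TLI mice, and all populations gave a library from every pool except DC2, for which no library of TLI pool 2 was analysed here. That made 23 libraries in 8 groups. Both untreated pools and TLI pools 1 and 2 were labelled batch 1, and TLI pools 3 and 4 were labelled batch 2. Batch 2 thus held TLI mice only. The cells of several mice were pooled in each library.

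Actin exists as a pool of monomers and as filaments, and cells turn one into the other to move, to extend dendrites and to form contacts with T cells. Thymosins (Tmsb4x, Tmsb10) hold monomers in reserve, profilin (Pfn1) charges monomers and delivers them to growing filament ends, and cofilin (Cfl1) severs old filaments. Coronin 1A (Coro1a) and L-plastin (Lcp1) are leukocyte proteins that bind filaments, the first regulating their turnover and the second bundling them. Vimentin (Vim) forms intermediate filaments, and Ahnak is a giant scaffold protein beneath the plasma membrane that binds S100A10 and annexin A2.

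Upstream sequences are shown for 2 members with opposite differences from DC1a, Actg1, which was lower in DC1b and DC2, and Ahnak, which was lowest in DC1a. They were copied from the RefSeq promoter table (GRCm38.p6), which held 9 of the 10 members (Actb is missing), and cut where the gene begins in the GENCODE annotation of the same build. Capitals mark CArG boxes (the serum response factor element of actin genes), the GC box GGGCGG, the CAAT box motif CCAAT and the TATA box motif TATAAA. Each was sought on either strand, and neighbouring GC boxes may overlap. The first spans chr11:120348543-120348745 on the minus strand and the second chr19:8989034-8989283 on the plus strand, both written 5′ to 3′.
Actg1: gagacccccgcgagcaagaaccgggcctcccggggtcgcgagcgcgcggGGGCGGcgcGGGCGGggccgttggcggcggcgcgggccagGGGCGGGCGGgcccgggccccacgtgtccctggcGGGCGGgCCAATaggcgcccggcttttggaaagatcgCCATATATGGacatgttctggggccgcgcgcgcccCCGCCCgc
Ahnak: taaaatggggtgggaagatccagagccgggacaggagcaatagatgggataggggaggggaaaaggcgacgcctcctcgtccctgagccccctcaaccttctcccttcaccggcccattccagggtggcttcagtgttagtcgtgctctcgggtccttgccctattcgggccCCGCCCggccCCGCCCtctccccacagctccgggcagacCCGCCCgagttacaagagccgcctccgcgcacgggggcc
Over the 250 bases before each start, a CArG box occurred in 1 of the 9 members, Actg1, and in 1.47% of 32851 promoter windows of all genes. GGGCGG occurred in 7 of 9 members against 32.7% of windows, CCAAT in 3 of 9 against 33.8%, and TATAAA in 1 of 9 (Vim) against 12.4%. A member counted if any of its windows held the motif, and Coro1a, Lcp1 and Tmsb10 had several windows. The shares of members and of single windows are therefore not alike. G and C made up 41.6% to 79.2% of the members' windows, beside a median of 52.4% for all windows. A match is a string of letters, and binding was not measured.

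Libraries held 19256447 to 36997890 counts, with 19256447 to 28688091 in batch 1 and 28456134 to 36997890 in batch 2. The general DC markers (Flt3, Zbtb46, Itgax, H2-Aa, H2-Ab1 and Cd74) summed to 10575 to 101933 CPM and all 6 were detected in each group. The 8 DC1 markers summed to 2683 to 4860 CPM in DC1a, to 773 to 2008 CPM in DC1b, to 2052 to 3306 CPM in DC3 and to 207 to 487 CPM in DC2, so that DC3 lay near DC1a for these genes. The 6 DC2 markers summed to 672 and 769 CPM in untreated DC2 and to 159 to 676 CPM in TLI DC2, where Esam was at 0. In DC1b they summed to 262 and 349 CPM in untreated mice and to 48.7 to 227 CPM in TLI mice, which overlapped TLI DC2. Clec4a4, another DC2 marker, was at 0 in untreated DC1a. Libraries of both treatments also held markers of other cells. The 7 erythroid markers summed to 19304 to 133566 CPM in the 7 TLI libraries of batch 1, to 143 to 7144 CPM in the 8 of batch 2 and to 56.4 to 2276 CPM in untreated libraries. The 9 neutrophil markers summed to 1406 to 21048 CPM in TLI DC1b against 1.16 and 20.2 CPM in untreated DC1b. The 6 plasmacytoid DC markers summed to 4035 and 5616 CPM in untreated DC1b, to 61.8 to 153 CPM in TLI DC1b and to at most 256 CPM elsewhere, and so moved with each comparison of untreated DC1b. The 10 monocyte or macrophage markers summed to 3659 and 5774 CPM in untreated DC1b and to 7793 to 25315 CPM in TLI DC1b. The 8 NK cell markers summed to 256 and 507 CPM in untreated DC3 and to 58.2 to 4068 CPM in TLI DC3. The part of these cells in the values below was not tested. In bulk libraries such as these, a change in the make-up of a sorted population and a change in RNA per cell cannot be told apart, and p-values measure the spread among pools.

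Tmsb4x was the most abundant gene of all 47729 by mean CPM, at 42286 CPM. Actb ranked 28 (2606 CPM), Pfn1 47 (1844), Tmsb10 68 (1358), Cfl1 92 (1078), Actg1 116 (922), Lcp1 133 (849), Vim 193 (661), Ahnak 489 (305) and Coro1a 609 (249.5). Per kilobase of exon, which allows levels to be compared between genes, the median over the 23 libraries ran in the order Tmsb4x (26731 CPM per kb), Actb (845), Pfn1 (684), Tmsb10 (588), Actg1 (355), Cfl1 (316), Lcp1 (95.6), Vim (80.6), Coro1a (65.1) and Ahnak (9.81). Divided by the longest coding transcript in place of all exons, Pfn1 (1912) stood above Actb (1179) and the remaining order held. Ahnak drops to the last place on this scale because its exons add up to 19938 bases. The highest library exceeded the lowest 33.6-fold for Tmsb10, 20.8-fold for Vim and 20.2-fold for Ahnak, but 4.01-fold for Tmsb4x.

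Together the 10 genes took 2.69% to 9.40% of all counts of a library, and Tmsb4x alone 2.01% to 8.05%. The summed share was 7.70% ± 1.10 (SD, n = 2) in untreated DC1a, 3.38% ± 0.190 in untreated DC1b, 3.40% ± 0.0853 in untreated DC2 and 3.93% ± 0.191 in untreated DC3 (n = 2 each). In TLI mice it was 6.59% ± 3.02 in DC1a, 5.74% ± 1.25 in DC1b and 5.25% ± 1.47 in DC3 (n = 4 each), and 4.27% ± 1.53 in DC2 (n = 3). Both untreated DC1a libraries stood above all other untreated libraries, whereas the TLI groups overlapped.

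**Figure D1:**
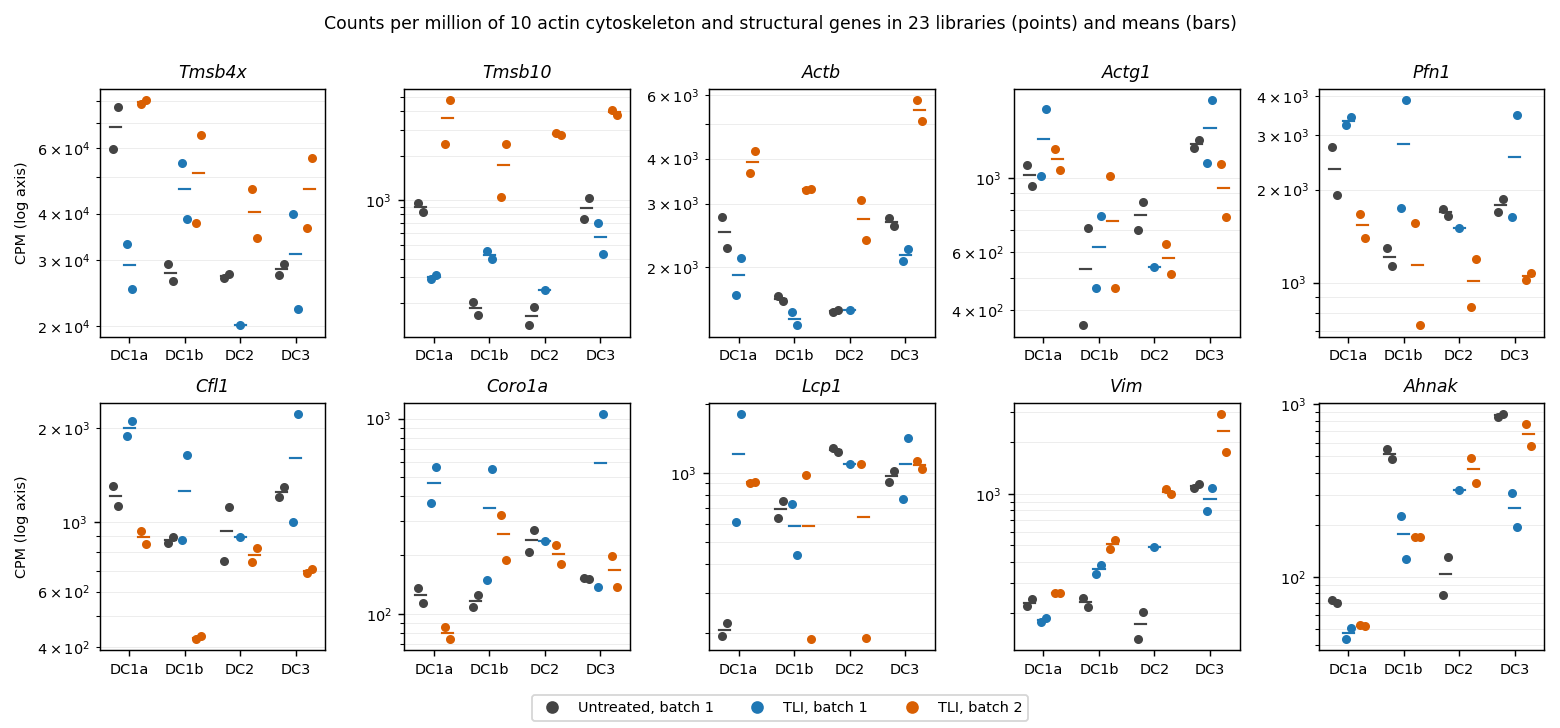
CPM of each gene (log axis) in the 23 libraries by population; points are libraries, bars are means, and colours separate untreated, TLI batch 1 and TLI batch 2. All Ahnak points of DC1a lie below those of the other populations, and the TLI points of Tmsb10 and Actb in batch 2 lie above those in batch 1.

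**Figure D2:**
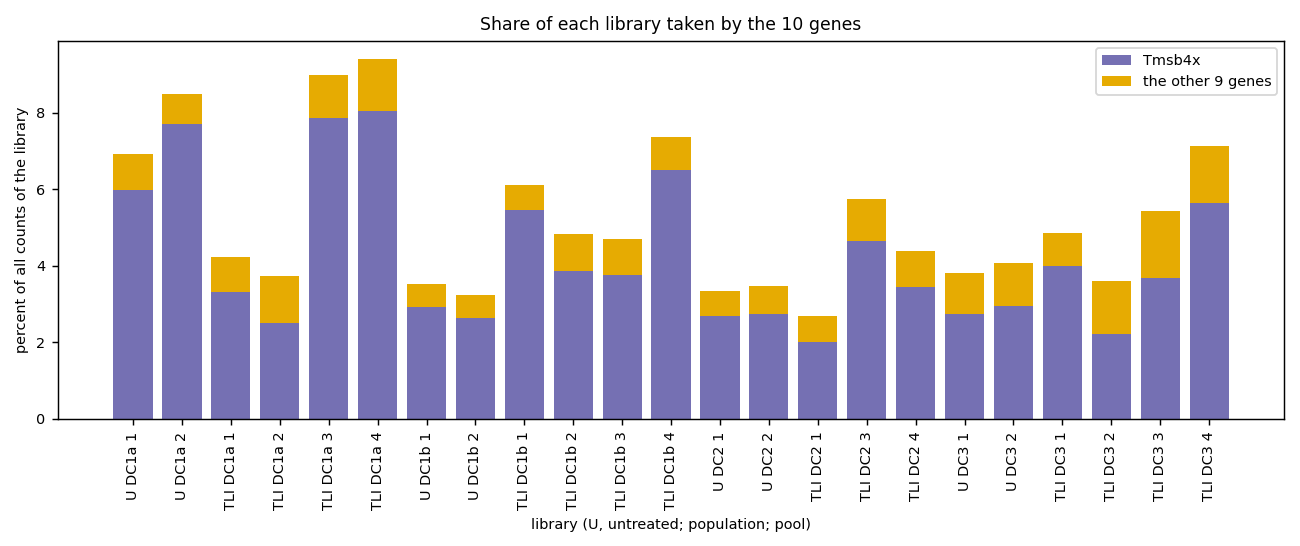
Percent of all counts of each library in Tmsb4x (lower bar) and in the other 9 genes (upper bar), by population, treatment and pool. The total runs from 2.69% to 9.40%, and most of it is Tmsb4x.

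Differences among the populations were estimated by edgeR's quasi-likelihood test over 19597 genes as the mean of the difference in untreated mice and the difference in TLI mice. All 10 members passed the filter on low counts, and a gene was called at an adjusted p under 0.05. Since abundant genes were called more often, the share called is also given for the 609 genes with a mean of at least 249.5 CPM, the level of the least abundant member. Ahnak and Vim were the members that separated the populations most.

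Ahnak (chromosome 19, 8989284 to 9076914, plus strand, GRCm38, GENCODE M21) was lowest in DC1a. Its level was 73.5 and 70.6 CPM in untreated DC1a and 43.4, 50.4, 52.5 and 51.7 CPM in TLI DC1a. In DC1b it was 552 and 485 CPM in untreated mice and 225, 127, 170 and 169 CPM in TLI mice. In DC2 it was 78.6 and 130 CPM in untreated mice and 318, 489 and 350 CPM in TLI mice. In DC3 it was 850 and 878 CPM in untreated mice and 306, 196, 770 and 575 CPM in TLI mice. Every library of the other 3 populations exceeded every DC1a library. The log2 difference from DC1a was 3.10 ± 0.273 (SE) in DC3 (adjusted p = 9.61e-06), 2.15 ± 0.258 in DC1b (adjusted p = 8.88e-05) and 1.44 ± 0.256 in DC2 (adjusted p = 0.00199). Ahnak was also higher in DC3 than in DC2 (log2 1.66 ± 0.260, adjusted p = 0.00112), but the difference was 3.02 among untreated libraries (adjusted p = 0.0103) and 0.35 among TLI libraries (adjusted p = 0.761). Likewise the DC2 difference from DC1a was 0.29 in untreated mice (adjusted p = 0.572) and 2.57 in TLI mice (adjusted p = 0.00127).

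Vim (chromosome 2, 13573927 to 13582826, plus strand) was highest in DC3. It measured 1078 and 1137 CPM in untreated DC3 and 795, 1078, 2927 and 1757 CPM in TLI DC3. DC1a held 218 and 241 CPM in untreated mice and 176, 186, 260 and 263 CPM in TLI mice, and DC1b 245 and 217 CPM and 339, 382, 476 and 535 CPM. DC2 held 140 and 203 CPM in untreated mice and 490, 1060 and 991 CPM in TLI mice. All DC3 libraries lay above all DC1a and DC1b libraries, and overlapped those of DC2. The log2 difference of DC3 was 2.27 ± 0.167 from DC1a (adjusted p = 2.67e-06), 1.97 ± 0.165 from DC1b (adjusted p = 6.02e-06) and 1.87 ± 0.169 from DC2 (adjusted p = 5.73e-06). Among DC1a, DC1b and DC2, Vim did not pass the test in the combined fit, and in TLI mice alone it was higher than in DC1a by 0.92 in DC1b (adjusted p = 0.042) and by 1.43 in DC2 (adjusted p = 0.00266).

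Among the genes that bind or form actin monomers, Tmsb10 and Actb were lower in DC1b and DC2 than in DC1a and DC3, whereas Tmsb4x was lower in both DC2 and DC3 than in DC1a. Tmsb4x lies on chromosome X (167207093 to 167209315, minus strand) and Tmsb10 on chromosome 6 (72957347 to 72958748, minus strand). Tmsb4x was lower in DC2 than in DC1a with a log2 difference of -1.31 ± 0.257 (adjusted p = 0.00454) and in DC3 with a log2 difference of -1.07 ± 0.248 (adjusted p = 0.0411). The DC1b estimate was also below DC1a, at -0.83 ± 0.248, but did not pass (adjusted p = 0.0868). Untreated DC1a held 59762 and 77054 CPM of Tmsb4x, and the 6 other untreated libraries 26339 to 29360 CPM. TLI DC1a held 33089 and 25131 CPM in batch 1 and 78514 and 80488 CPM in batch 2, against 20052 to 65097 CPM in the other TLI libraries, an overlap. Among TLI libraries alone, Tmsb4x did not pass against DC1a in DC1b, DC2 or DC3 (adjusted p of 0.983, 0.146 and 0.67). The DC3 call was lost in 24 of 35 alternative settings, 18 of them leaving out 1 library.

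Tmsb10, the sister thymosin, followed another pattern. Untreated DC1a (963 and 826 CPM) and DC3 (751 and 1032 CPM) stood above untreated DC1b (203 and 165 CPM) and DC2 (141 and 187 CPM). TLI DC1a held 290, 308, 2407 and 4757 CPM, TLI DC1b 450, 398, 1049 and 2398 CPM, TLI DC2 244, 2863 and 2778 CPM and TLI DC3 695, 429, 4101 and 3800 CPM of Tmsb10, so that the TLI populations overlapped. In the combined fit it was lower than in DC1a with a log2 difference of -1.46 ± 0.294 in DC1b (adjusted p = 0.00958) and with a log2 difference of -1.60 ± 0.303 in DC2 (adjusted p = 0.00328), and higher in DC3 than in DC1b by 1.46 ± 0.292 (adjusted p = 0.0153) and than in DC2 by 1.60 ± 0.304 (adjusted p = 0.0055). In the TLI libraries alone none of these passed, the differences from DC1a being -0.30 in DC1b (adjusted p = 0.853) and -0.55 in DC2 (adjusted p = 0.54). The Tmsb10 call in DC1b against DC1a was also lost without untreated DC1a pool 1, DC1b pool 1 or DC1b pool 2 (adjusted p of 0.0567, 0.0519 and 0.0826), and that in DC3 against DC1b without untreated DC1b pool 1, DC1b pool 2 or DC3 pool 2 (adjusted p of 0.082, 0.127 and 0.102).

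Both cytoplasmic actins were lower in DC1b and DC2 than in DC1a. Actb, beta actin, was lower in DC1b with a log2 difference of -0.66 ± 0.104 (adjusted p = 0.00138) and in DC2 with a log2 difference of -0.85 ± 0.108 (adjusted p = 8.36e-05) than in DC1a. Against DC3 it was also lower in both, with differences of DC3 of 0.62 ± 0.104 from DC1b (adjusted p = 0.00404) and 0.82 ± 0.107 from DC2 (adjusted p = 0.000242). No Actb call was lost on leaving out 1 library. Of 35 alternative settings, the Actb calls against DC1a were lost in 4 for DC1b and 2 for DC2, and those of DC3 in 5 against DC1b and 4 against DC2, always without the batch term or in a subset of the libraries. In untreated mice Actb measured 2754 and 2264 CPM in DC1a, 1660 and 1612 in DC1b, 1502 and 1525 in DC2, and 2733 and 2601 in DC3. In TLI mice it measured 1670, 2124, 3647 and 4199 CPM in DC1a, 1501, 1379, 3281 and 3292 in DC1b, 1526, 3064 and 2383 in DC2, and 2085, 2240, 5800 and 5084 in DC3, in overlapping ranges. Actg1, gamma actin, was lower with a log2 difference of -1.07 ± 0.243 in DC1b (adjusted p = 0.0207) and with a log2 difference of -1.01 ± 0.251 in DC2 (adjusted p = 0.0208), calls that were lost in 8 and 9 of 35 alternative settings. With the pool of mice as a replicate block, Actg1 also passed in DC3 against DC1b (0.98 ± 0.190, adjusted p = 0.0202) and against DC2 (0.82 ± 0.196, adjusted p = 0.0373). All DC2 libraries (514 to 846 CPM) lay below all DC1a libraries (944 to 1615 CPM). Actg1 is uncertain, because 54.3% of its 76-base windows also occur in other genes, and 47.7% of its windows occur in Gm12715, whose CPM reached 63.5% of that of Actg1. Tmsb10 shared 32.4% of its windows with 2 such copies.

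Pfn1 measured 1394 to 3443 CPM in DC1a and 832 to 1726 CPM in DC2, and Cfl1 853 to 2104 CPM in DC1a and 423 to 1639 CPM in DC1b. Both pairs of ranges overlapped. Pfn1 was lower in DC2 than in DC1a with a log2 difference of -0.88 ± 0.239 (adjusted p = 0.033), and lower in all 5 pools with both. Cfl1 was lower in DC1b than in DC1a with a log2 difference of -0.85 ± 0.213 (adjusted p = 0.0376), and lower in all 6 pools. The remaining Pfn1 and Cfl1 differences did not pass, but with the pool of mice as a replicate block Pfn1 also passed in DC1b against DC1a (-0.87 ± 0.194, adjusted p = 0.0272) and Cfl1 in DC2 against DC1a (-0.65 ± 0.168, adjusted p = 0.0343). The Pfn1 call was lost in 13 and the Cfl1 call in 19 of 35 alternative settings.

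Lcp1 was not called in the combined fit, but untreated DC1a stood below the other untreated populations. It held 193 and 220 CPM, against 635 and 750 in DC1b, 1281 and 1237 in DC2 and 908 and 1019 in DC3. With the untreated libraries fitted alone, Lcp1 was higher than in DC1a by 1.45 in DC1b (adjusted p = 0.032), by 2.38 in DC2 (adjusted p = 0.00926) and by 1.96 in DC3 (adjusted p = 0.0378). In TLI DC1a it measured 610, 1801, 905 and 909 CPM, against 188 to 1414 CPM in the other TLI populations, and the differences from DC1a of -0.88, -0.67 and -0.14 in DC1b, DC2 and DC3 did not pass among TLI libraries. The lowest TLI values were 188 CPM in DC1b pool 4 and 190 CPM in DC2 pool 4. Coro1a did not pass in any pair of populations. It ranged from 74.3 to 565 CPM in DC1a, 109 to 551 CPM in DC1b, 181 to 269 CPM in DC2 and 137 to 1054 CPM in DC3. It is also uncertain, since Bola2 overlaps it on the opposite strand with a median CPM of 60.8% of that of Coro1a, and strand use in counting was not stated in the sources used here.

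By comparison, 5 of the 10 members were called in DC1b against DC1a, where 2.89% of all genes tested and 21.5% of the 609 abundant genes were. In DC2 against DC1a it was 6 members, against 7.01% and 43.0%. In DC3 against DC1a, 3 members were called, against 1.4% and 14.0%. In DC3 against DC1b it was 3 members (1.33% and 9.2%), and in DC3 against DC2 it was 4 (3.33% and 20.9%). In DC2 against DC1b edgeR called 0.75% of genes tested and 5.58% of abundant genes but no member. At an unadjusted p under 0.05 there was 1 member, for which the share of all genes is not given, so this does not set the members apart. DESeq2 called no member there either. In the untreated libraries alone, 5 members were called in DC1b against DC1a (1.11% of genes and 73 of 607 abundant genes), 4 in DC2 (2.67% and 30.5%) and 4 in DC3 (0.138% and 2.14%). The median log2 change of the members was -0.75 in DC1b, -0.77 in DC2 and -0.02 in DC3 against DC1a, beside 0.05, 0.08 and 0.03 for all genes.

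**Figure D3:**
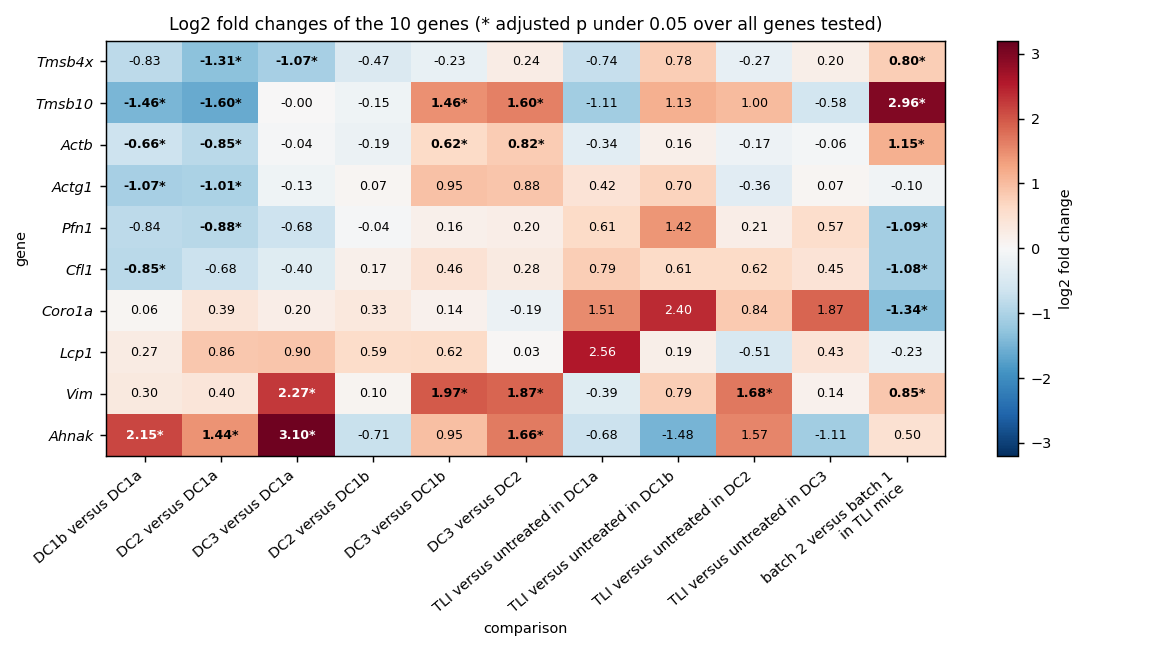
Log2 fold change of each gene (rows) in 11 comparisons (columns), coloured from blue (lower) to red (higher); an asterisk marks an adjusted p under 0.05 over all genes tested. Ahnak and Vim are higher in DC3 than in DC1a, and Tmsb10 and both actins are lower in DC1b and DC2 than in DC1a.

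TLI libraries were set against untreated libraries with 1 batch term shared by the 4 populations. The difference is thus that of batch 1 only where the batches differed alike in all of them. For Tmsb4x they did not: mean CPM was 29110 in batch 1 and 79501 in batch 2 of TLI DC1a, and 46582 and 51374 in TLI DC1b. In DC2, Vim was higher after TLI by 1.68 ± 0.262 on the log2 scale (adjusted p = 0.0189), and all 3 TLI libraries exceeded both untreated libraries. It was the only member called among the 4 populations, where 0.0612% of genes tested and 0.821% of abundant genes were called in DC2. The batch 1 part of this rested on a single TLI library, and in batch 1 alone the difference was 1.58 (adjusted p = 0.137). The call was also lost without untreated DC2 pool 1 (adjusted p = 0.185), without TLI DC2 pool 3 (adjusted p = 0.051) and without TLI DC2 pool 4 (adjusted p = 0.0548). The 10 monocyte or macrophage markers summed to 5963 to 13612 CPM in TLI DC2 against 5283 and 5653 CPM in untreated DC2, and the 9 neutrophil markers to 110 to 2322 CPM against 1.63 and 2.34 CPM. Their part in the Vim difference was not tested.

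In DC1a, DC1b and DC3 no member was called in edgeR, where 0.0102%, 0.413% and 0.0255% of genes tested were called. Before adjustment 5, 6 and 2 members had p under 0.05 in edgeR. The share of all genes is not given for this, so these counts do not set the members apart. DESeq2 called 1 (Lcp1), 4 (Pfn1, Coro1a, Vim and Ahnak) and 0 members, where it called 755, 1267 and 719 of all genes. Ahnak was at lower values in TLI libraries than in every untreated library in DC1a, DC1b and DC3, and at higher values in DC2. Its log2 differences were -0.68 ± 0.352, -1.48 ± 0.345, -1.11 ± 0.363 and 1.57 ± 0.404 in DC1a, DC1b, DC3 and DC2, with adjusted p of 0.551, 0.0724, 0.356 and 0.21. Lcp1 in DC1a had the largest estimate, 2.56 ± 0.689 (adjusted p = 0.309), with all 4 TLI libraries above both untreated ones. The test of whether the TLI difference was equal in the 4 populations called no member in edgeR (0.0357% of genes tested). The adjusted p was 0.0595 for Vim and 0.0745 for Ahnak. At an unadjusted p under 0.05 there were 5 members, again without a share of all genes, so this count does not set them apart. DESeq2 called 3, Tmsb10, Vim and Ahnak, where it called 392 of all genes.

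The 2 batches of TLI mice were also compared. This comparison was added after the values had been seen. The libraries of each batch came from only 2 pools of TLI mice. The fit counted the populations of a pool as separate libraries, so that its p-values do not measure the spread among pools as units. Between batch 2 and batch 1 of the TLI libraries, 7 members were called, against 17.4% of genes tested and 58.5% of abundant genes. Tmsb10 rose by 2.96 ± 0.271 on the log2 scale (7.75-fold, adjusted p = 2.7e-06). It measured 244 to 695 CPM in the 7 libraries of batch 1 and 1049 to 4757 CPM in the 8 of batch 2, without overlap. Actb rose by 1.15 ± 0.089 (adjusted p = 5.78e-07), from 1379 to 2240 CPM in batch 1 to 2383 to 5800 CPM in batch 2, also without overlap. Vim rose by 0.86 ± 0.137 (adjusted p = 0.000362) and Tmsb4x by 0.80 ± 0.215 (adjusted p = 0.0166). Pfn1 fell by 1.09 ± 0.198 (adjusted p = 0.00111), Cfl1 by 1.08 ± 0.186 (adjusted p = 0.000664) and Coro1a by 1.34 ± 0.416 (adjusted p = 0.0348), a call lost in 10 of 19 alternative settings, 9 of them leaving out 1 library. The Tmsb4x call was lost without TLI DC2 pool 1 (adjusted p = 0.0534) and with the TLI libraries fitted alone (adjusted p = 0.0533). Actg1, Lcp1 and Ahnak did not pass, with adjusted p of 0.78, 0.702 and 0.115. Total counts, erythroid markers and the DC markers moved with the batch as well: the general DC markers summed to 29111 to 101933 CPM in batch 1 and to 10575 to 34051 CPM in batch 2. The T cell markers summed to 115 to 720 CPM in batch 1 and to 2.50 to 39.7 CPM in batch 2, the NK cell markers to 205 to 4068 CPM and 0.241 to 89.4 CPM, and the migratory or mature DC markers to 974 to 5151 CPM and 109 to 586 CPM, each without overlap. The part of these in the differences was not tested. Batch 2 held no untreated mice.

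Ratios within a library need no scaling between libraries and were also compared. Tmsb10 stood at 0.825% to 1.94% of Tmsb4x in TLI batch 1, at 2.79% to 11.2% in TLI batch 2 and at up to 3.51% in untreated libraries. Pfn1 over Actb was 0.785 to 2.82 in TLI batch 1 and 0.176 to 0.499 in TLI batch 2. Neither ratio overlapped between the batches. Actg1 over Actb was 0.311 to 0.765 in TLI batch 1 and 0.142 to 0.336 in TLI batch 2, with an overlap.

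**Figure D4:**
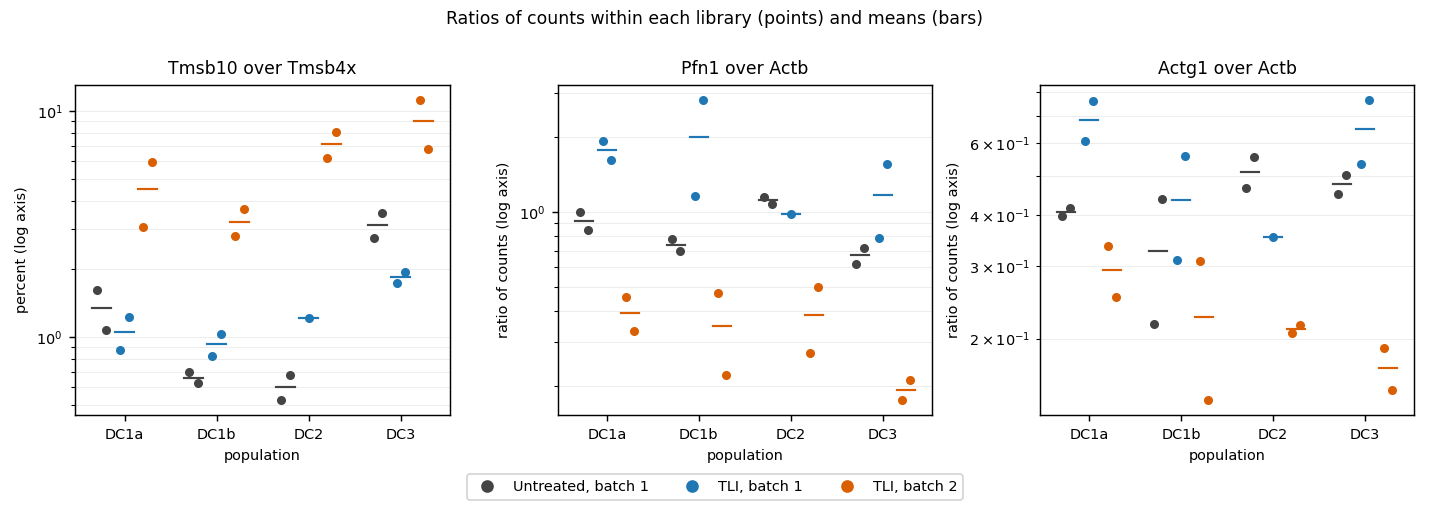
Ratio of counts within each library (log axes) by population for Tmsb10 over Tmsb4x (percent), Pfn1 over Actb and Actg1 over Actb; points are libraries and bars are means. Tmsb10 over Tmsb4x runs from 2.79% to 11.2% in TLI batch 2 and from 0.825% to 1.94% in TLI batch 1.

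Other genes of the cytoskeleton, with 12 abundant genes outside it, came from 12 lists of 140 genes, of which 134 were tested. The first list held S100 and annexin genes, partners of Ahnak and their relatives. Of 7 tested, 5 were called higher in DC3 than in DC1a, 4 in DC2 and 3 in DC1b, and none was called lower. Of all genes tested 1.4%, 7.01% and 2.89% were called there, and of abundant genes 14.0%, 43.0% and 21.5%. The median log2 differences of the list were 3.03, 2.04 and 1.58. Estimates below DC1a, none called, were S100a11 (-0.909) and Anxa1 (-0.851) in DC1b, Anxa1 (-0.455) in DC2 and S100a11 (-0.145) in DC3. S100a4, a calcium-binding protein linked to cell movement, was higher by 4.59 ± 0.435 in DC3 (adjusted p = 1.63e-05), by 6.62 ± 0.494 in DC2 (adjusted p = 2.47e-07) and by 5.47 ± 0.459 in DC1b (adjusted p = 2.05e-06). It stood at 3.94 to 12.7 CPM in DC1a and at 134 to 1813 CPM elsewhere. S100a10, which binds Ahnak together with annexin A2, was higher in DC3 by 3.51 ± 0.362 (adjusted p = 3.61e-05). Anxa2 was higher in DC3 than in DC1b by 2.26 ± 0.324 (adjusted p = 0.00108), and Anxa1 was higher in DC3 than in DC1b by 2.20 ± 0.338 (adjusted p = 0.00188) and than in DC2 by 1.80 ± 0.344 (adjusted p = 0.00574). S100a4 ran the other way in DC3 against DC2, lower with a log2 difference of -2.03 ± 0.379 (adjusted p = 0.00507).

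**Figure D5:**
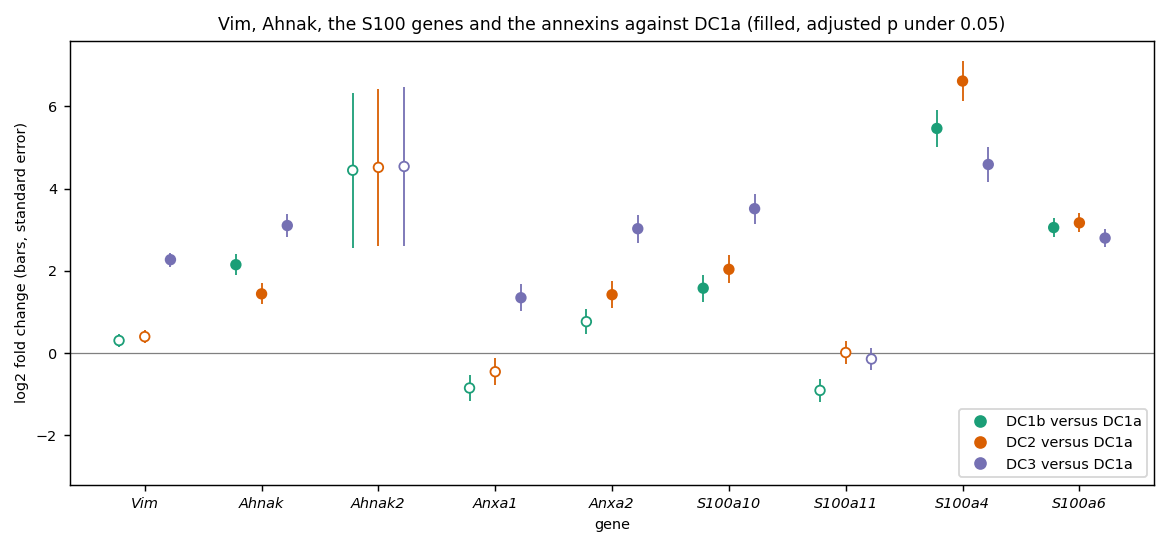
Log2 difference from DC1a (points, bars are standard errors) of Vim, Ahnak and 7 S100, annexin and Ahnak-like genes in DC1b, DC2 and DC3; filled points have an adjusted p under 0.05. S100a4 and S100a6 are filled in all 3 comparisons, and Ahnak2 is open in all 3 with wide bars.

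Across the whole set of 134 genes, 13 were higher and 5 lower in DC1b than in DC1a, 20 and 8 in DC2, and 12 and 5 in DC3. Of all genes tested 2.89%, 7.01% and 1.4% were called there in either direction, and of abundant genes 21.5%, 43.0% and 14.0%. In DC3 the counts were 4 and 7 against DC1b and 7 and 9 against DC2, and in DC2 against DC1b 1 and 0. The Arp2/3 complex, which branches filaments, had 1 of 9 subunits lower in DC1b and in DC2 and no other call among the populations. Capg, a filament capping protein, was higher in DC1b by 6.34 ± 1.391 (adjusted p = 0.0174) and in DC2 by 5.71 ± 1.364 (adjusted p = 0.0163) than in DC1a. Untreated DC1a held 0 and 0.279 CPM, so that the size of these estimates is uncertain. In TLI mice DC1a held 0 to 19.2 CPM, DC1b 11.4 to 125 CPM and DC2 17.1 to 83.2 CPM, in overlapping ranges. Dstn, a relative of cofilin, was lower in DC3 than in DC1a with a log2 difference of -2.03 ± 0.382 (adjusted p = 0.00984), and Marcksl1, which links filaments to the membrane, with a log2 difference of -3.11 ± 0.380 (adjusted p = 0.000207). Fmnl2, a formin, was lower in DC2 than in DC1a with a log2 difference of -3.64 ± 0.774 (adjusted p = 0.00769) and higher in DC3 than in DC2 by 3.50 ± 0.769 (adjusted p = 0.0161).

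TLI against untreated gave no call among these genes in DC1a, DC2 or DC3, and in DC1b 3 higher and 1 lower of 134. Anxa1 was higher by 2.82 ± 0.529 (adjusted p = 0.0244) and Ftl1, the ferritin light chain, by 1.68 ± 0.315 (adjusted p = 0.0244), and Dock10 was lower with a log2 difference of -1.59 ± 0.247 (adjusted p = 0.00863). Lower Dock10 values after TLI were not particular to DC1b, though not called elsewhere. In untreated and TLI mice Dock10 measured 308 to 361 and 136 to 192 CPM in DC1a, and 1652 to 1781 and 679 to 817 CPM in DC2. In DC3 it measured 660 to 898 and 289 to 439 CPM. In edgeR 0.413% of all genes tested and 3.61% of abundant genes were called in DC1b. The neutrophil and the monocyte or macrophage markers were higher and the plasmacytoid DC markers lower in TLI DC1b than in untreated DC1b, and their part in these differences was not tested. Between the batches of TLI mice, where 17.4% of all genes tested and 58.5% of abundant genes were called, 14 were higher and 32 lower, among them 5 of 9 tubulins lower, with Tuba4a falling by 3.43 ± 0.671 (adjusted p = 0.00193). Marcks rose by 2.05 ± 0.248 (adjusted p = 3.33e-05) and Wipf1, which binds the Arp2/3 activator WASP, by 1.98 ± 0.292 (adjusted p = 0.000188). Of the abundant genes outside the cytoskeleton, Rplp0, a ribosomal protein gene, was lower in DC1b, DC2 and DC3 than in DC1a. The log2 differences were -0.84 ± 0.173 (adjusted p = 0.0118), -1.28 ± 0.181 (adjusted p = 0.000259) and -0.87 ± 0.173 (adjusted p = 0.0147). Ftl1 was lower in DC1b than in DC1a in the combined fit, with a log2 difference of -0.81 ± 0.204 (adjusted p = 0.0402). It was also lower than in DC1a in DC2 (-0.94 ± 0.21, adjusted p = 0.0105) and in DC3 (-1.67 ± 0.209, adjusted p = 0.000241). Mean Ftl1 was 4949 CPM in DC1b and 11594 CPM in DC1a in untreated mice. In TLI mice it was higher in DC1b, at 10948 CPM against 9808 CPM in DC1a.

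The genes most like each member were found by Pearson's r of log2 CPM over the 23 libraries among 10147 genes, as a description. The libraries share batch and depth, which bear on every r. Tmsb10 was closest to its own copies Gm3788 (r = 0.983) and Gm9844 (0.978), and Cfl1 to its copy Gm6180 (0.945). Vim was followed by Fam102b (0.883) and S100a10 (0.852), and Ahnak by Lgals1, galectin 1 (0.875), Plec, the cytolinker plectin (0.864), and Emp3 (0.823). Coro1a was closest to Cotl1, an actin-binding coactosin (0.879), Pfn1 to Taldo1 (0.939), Actb to Gm10053 (0.934), Tmsb4x to Ndufs4 (0.929), Actg1 to Ece1 (0.864) and Lcp1 to Gapvd1 (0.775). Among the members, Tmsb10 with Actb gave 0.908, Pfn1 with Cfl1 0.867 and Vim with Ahnak 0.706, and the lowest was Pfn1 with Ahnak (-0.638).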

How the data were processed

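RNA of sorted splenic DC populations was amplified and sequenced by the authors, who trimmed reads with Trimmomatic, aligned them with HISAT2 and quantified genes with StringTie on GRCm38 (Ensembl 84). The deposited table holds their estimated counts, whole numbers derived by StringTie from read coverage, for 47729 genes in 23 libraries of 19256447 to 36997890 counts. Samples were grouped by the labels. Counts were tested with edgeR 4.0.16 (R 4.3.3) by the quasi-likelihood test on all 23 libraries with a term for each of 8 groups and for batch, TMM scaling (0.84 to 1.18) and the edgeR filter on low counts, which left 19597 genes. P-values were adjusted by Benjamini-Hochberg over all genes tested. The batch term rested on TLI pools alone and was common to all populations. CPM are counts divided by the library total and scaled to the usual CPM unit. Populations were compared as the mean of the untreated and TLI differences. The fit was tested on simulated data. DESeq2 1.42.0 and other scalings, filters and subsets were alternatives.

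The 10 members and all lists were chosen with earlier results of these data known. Of other genes, 3 with the highest r were found per member (mean of at least 5 CPM), and, in each comparison, up to 2 called list genes with the largest increase and 2 with the largest decrease (mean of at least 20 CPM) were named. S100a6 and Ahnak2 are shown outside that rule, as are Rplp0 and Ftl1 in further populations and Dock10 for TLI outside DC1b. Pool numbers join the populations of the same mice within a treatment. Across treatments they are only numbers. The residual correlation of same-pool libraries was -0.0533 to 0.135 (median 0.00815). Where a group held 2 libraries in a batch, both pools gave the same value, so that values repeat. The lowest, of DC3 with DC2 in TLI pool 1, includes a batch difference, since that DC2 library was the only one of its batch.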

Additional observations from a re-analysis of the deposited data

Results flagged for a closer look

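Each of 13 measures, the CPM of the 10 genes, their summed share of counts and the ratios Actg1 over Actb and Tmsb10 over Tmsb4x, was examined in the 3 TLI groups of 4 libraries. In 1 of these 39 sets, 1 library lay far from the others. Chance gives such a gap in about 1 of 20 sets. Coro1a stood at 1054 CPM in TLI DC3 pool 2, whose nearest neighbour held 198 CPM, so that the gap made up 0.933 of the group's range. In that library the general DC markers summed to 75681 CPM, against 15080 to 29111 CPM in the other TLI DC3 libraries, and the migratory or mature DC markers to 3059 CPM. The erythroid markers summed to 19304 CPM there and to 133566 CPM in TLI DC3 pool 1, where Coro1a stood at 137 CPM. The part of these in the Coro1a value was not tested.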

How the results depend on the processing

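Of 110 member differences, 29 were called, and none of the 29 changed sign under any alternative run. Vim in DC3 against DC1a and DC1b, and Ahnak in DC3 against DC1a, passed in all 35 settings. Members called by DESeq2 numbered 1, 4 and 2 for TLI in DC1a, DC1b and DC2, 5 in DC3 against DC1b and 3 for the difference among populations. Without a filter they numbered 1 for TLI in DC1a, 1 in DC1b and 3 for the difference among populations, and with at least 10 counts in every library 2 for TLI in DC1b, 5 in DC3 against DC1b and 2 for the difference among populations. With library totals they were 1 for TLI in DC1b and 3 in DC1b against DC1a. Without the batch term they were 0 for TLI in DC2, 2 in DC1b and 3 in DC2 against DC1a, and 1 and 2 in DC3 against DC1b and DC2. In batch 1 alone they were 0 for TLI in DC2, 1 in DC1b and 3 in DC2 against DC1a, and 2 in DC3 against DC2. In TLI libraries alone they were 2 in DC1b against DC1a, 1 in DC3 against DC1b and 2 in DC3 against DC2, in batch 2 alone 1, 1 and 0 and 2 in DC2 against DC1a, and in untreated libraries alone 1 in DC2 against DC1b (Ahnak). Subsets hold fewer libraries. Otherwise the cause was not tested. The number of all genes called also changed with the setting, as given in part below. These counts alone therefore do not set the members apart from other genes. Leaving out 1 library gave 0 to 0 members for TLI in DC1a and DC3, 0 to 1 in DC1b and DC2, 0 to 1 for the difference among populations, 2 to 6 in DC1b, 4 to 6 in DC2 and 2 to 3 in DC3 against DC1a, 0 to 0 in DC2 against DC1b, 2 to 4 in DC3 against DC1b, 4 to 5 in DC3 against DC2 and 6 to 8 between batches.

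With the pool of mice as a replicate block, 6 members were called in DC1b against DC1a (Pfn1 added), 7 in DC2 against DC1a (Cfl1 added), 0 in DC2 against DC1b, 3 in DC3 against DC1a, 4 in DC3 against DC1b and 5 in DC3 against DC2 (Actg1 added in both). With the pool number as a block, TLI gave 0, 0, 1 and 0 members in DC1a, DC1b, DC2 and DC3, and the difference among populations 0. The shares of all genes called with these blocks are not given, so the counts do not set the members apart.

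Over all genes, DESeq2 called 755, 1267, 876 and 719 for TLI in DC1a, DC1b, DC2 and DC3, where edgeR called 2, 81, 12 and 5. For DC1b, DC2 and DC3 against DC1a it called 1962, 3302 and 1605 against 567, 1373 and 275, for DC2 against DC1b 1365 against 147, and for DC3 against DC1b and DC2 1382 and 2364 against 260 and 653. For the difference among populations it was 392 against 7. Without a filter edgeR called 31, 167, 72 and 60 for TLI and 96 for the difference among populations, and without the batch term 306, 702 and 122 for the populations against DC1a. Library totals shifted the median of all genes by 0.184, 0.246 and 0.238 in DC1b, DC2 and DC3 against DC1a and by -0.299 for TLI in DC1b (log2). In 10 member differences, none of them called, the sign depended on the scaling. Relative to the median of all genes this held only for Coro1a in DC1b against DC1a and Pfn1 in DC2 against DC1b.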
